A study of Mus musculus with 6 samples.

Results

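The genes described here are those of natural killer (NK) receptors, granzymes and other cytotoxic functions on a mouse gene expression array. They were taken by symbol: every Klra to Klrk lectin-like receptor gene with a number, every granzyme gene (Gzma to Gzmn), and Prf1, Nkg7, Ncr1, Cst7, Ctsw, Eomes, Tbx21, Itga2 and Cd244. This gave 44 members (25 Klr genes, 10 granzymes and 9 others) of 24647 genes with a symbol, and of several probe sets of a gene the brightest on average was used, out of 34365 on the array. The tissue was nodules of metaplasia, columnar epithelium in place of squamous, dissected whole from the squamo-columnar junction (SCJ) of C57/BL6 mice, and total RNA was hybridised to 6 Affymetrix arrays. Nodules of 3 double transgenic *K14-Cdx2::L2-IL-1β* samples (52540, 52541 and 52542) were compared with nodules of 3 *L2-IL-1β* samples (52543, 52544 and 52545), to find which genes differ when Cdx2 is added. All 6 carried the L2-IL-1β transgene, which overexpresses IL-1β in esophageal and forestomach squamous epithelium, and all mice received deoxycholic acid (DCA) at 0.2% from 8 weeks of age for 12 months. The second transgene places the intestinal transcription factor Cdx2 under the keratin 14 promoter, a promoter of basal squamous cells. No source used here says whether a sample is 1 mouse or a pool, or gives an age or sex per sample.

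NK cells and cytotoxic T cells kill by releasing granules that hold perforin, which opens the target membrane, and granzymes, serine proteases that enter and start apoptosis. Whether they do so is set by receptors on their surface. In the mouse many of these are C-type lectins encoded side by side in the NK gene complex of chromosome 6. Some inhibit the cell on seeing self MHC class I molecules, such as several Ly49 proteins (Klra genes) and the CD94/NKG2A pair (Klrd1 and Klrc1). Others activate it, such as NKG2D of Klrk1. The same receptors are found on subsets of gamma-delta T cells, CD8 T cells and innate lymphoid cells, so none of them alone marks an NK cell.

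Of the 6 members that fell in nodules with both transgenes, the promoters of the 4 matched to a RefSeq entry (Klrc1, Klri1, Gzmb and Cst7) are shown, with Klrc1 and Gzmb each beside a close relative that was not called (Klrc2, by the first of its RefSeq starts, and Gzmc). They run from 250 bases before to 50 bases after the gene start, 5′ to 3′, from RefSeq on GRCm38.p6, where 37 of the 44 members matched an entry. Capitals mark matches on either strand to a Runx core (TGTGGT), an AP-1 element (TGANTCA), a STAT element (TTCNNNGAA) or a T-box element (TCACACC), and none of these strings contains another.
Klrc1, chr6:129678924-129679223, minus strand: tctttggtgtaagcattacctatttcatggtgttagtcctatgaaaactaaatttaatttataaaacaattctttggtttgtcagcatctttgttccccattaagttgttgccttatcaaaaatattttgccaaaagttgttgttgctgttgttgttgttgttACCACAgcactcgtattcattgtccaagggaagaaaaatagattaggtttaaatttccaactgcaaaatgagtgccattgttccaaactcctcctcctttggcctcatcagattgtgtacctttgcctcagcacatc
Klrc2, chr6:129660547-129660846, minus strand: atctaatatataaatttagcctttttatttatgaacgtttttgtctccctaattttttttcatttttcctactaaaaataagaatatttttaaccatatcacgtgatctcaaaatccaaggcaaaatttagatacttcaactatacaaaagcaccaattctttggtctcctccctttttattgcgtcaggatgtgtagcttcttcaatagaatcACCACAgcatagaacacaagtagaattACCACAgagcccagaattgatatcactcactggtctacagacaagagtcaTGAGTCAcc
Klri1, chr6:129717083-129717382, minus strand: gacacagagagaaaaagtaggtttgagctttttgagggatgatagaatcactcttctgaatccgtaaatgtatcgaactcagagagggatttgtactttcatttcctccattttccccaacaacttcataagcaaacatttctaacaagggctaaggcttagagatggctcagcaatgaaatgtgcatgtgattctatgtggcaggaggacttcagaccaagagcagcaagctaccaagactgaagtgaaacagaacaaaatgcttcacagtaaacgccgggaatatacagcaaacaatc
Gzmb, chr14:56262285-56262584, minus strand: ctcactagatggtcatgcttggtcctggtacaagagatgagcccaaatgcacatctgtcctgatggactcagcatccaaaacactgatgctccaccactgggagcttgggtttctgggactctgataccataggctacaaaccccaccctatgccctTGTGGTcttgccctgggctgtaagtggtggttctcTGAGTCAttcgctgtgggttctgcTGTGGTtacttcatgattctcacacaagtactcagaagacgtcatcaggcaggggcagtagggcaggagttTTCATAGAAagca
Gzmc, chr14:56234608-56234907, minus strand: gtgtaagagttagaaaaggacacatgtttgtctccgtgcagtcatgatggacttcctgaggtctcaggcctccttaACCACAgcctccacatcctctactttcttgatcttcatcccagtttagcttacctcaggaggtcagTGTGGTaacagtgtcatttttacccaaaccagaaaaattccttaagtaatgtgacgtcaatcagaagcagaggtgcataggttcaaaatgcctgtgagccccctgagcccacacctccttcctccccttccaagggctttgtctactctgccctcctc
Cst7, chr2:150570165-150570464, plus strand: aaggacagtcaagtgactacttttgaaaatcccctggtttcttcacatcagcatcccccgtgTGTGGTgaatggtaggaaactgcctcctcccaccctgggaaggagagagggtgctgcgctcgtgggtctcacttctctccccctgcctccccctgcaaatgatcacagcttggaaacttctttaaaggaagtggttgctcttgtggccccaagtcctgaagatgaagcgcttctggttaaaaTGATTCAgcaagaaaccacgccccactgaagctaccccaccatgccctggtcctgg

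Of the 4 promoters of genes that fell, 3 held the Runx core, 2 the AP-1 element, 1 the STAT element and 0 the T-box element, and that of Klri1 held no match at all. Over all 37 matched members the counts were 20, 7, 6 and 3. The Runx core stood in 16.8% of all 32851 promoters in the table, the AP-1 element in 7.81%, the STAT element in 8.3% and the T-box element in 3.98%. The member counts are not of independent sequences. Gzmc, Gzmd, Gzme, Gzmf and Gzmg have similar promoters with 2 Runx cores each, and those of Klrc2 and Klrc3 are nearly the same sequence. The promoters of the uncalled relatives also held matches (2 Runx cores in Gzmc, 2 Runx cores and an AP-1 element in Klrc2). Klrc1 and Klrc2 were identical at 50.28% of 356 alignment columns, gaps included, and Gzmb and Gzmc at 49.16% of 356. Klrc1 gave much the same share with Klri1 (49.57% of 351) and with Klrk1 (49.58% of 359). By this measure the promoters of the close relatives are no more alike than those other pairs. A match is a string in the window and not evidence of binding, and the motifs were chosen after the array values were seen.

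Most of the 44 genes did not pass the test between the genotypes, and those that did were all lower in nodules with both transgenes. The threshold for a call was an adjusted p under 0.10 by limma, with p-values adjusted over all 34365 probe sets. By this rule 6 members fell (Klri2, Klrc1, Cst7, Gzmb, Klrd1 and Klri1), 13.6% of the 44, where 1.26% of all probe sets were called lower. None was called higher by limma, where 0.576% of all probe sets were, while 14 members had an unadjusted p under 0.05, 13 of them lower (7.68% of all probe sets were lower and 6% higher at that p). Of the 6, 4 fell by at least 2-fold (Klri2, Klrc1, Cst7 and Gzmb), where 0.335% of all probe sets did. The remaining 38 ran from a log2 fold change of -0.69 to 0.35 with a median of -0.05, and the 95% interval of 30 of them included 0. Over all 44 the median log2 fold change was -0.09, against -0.01 over all probe sets. All differences are *K14-Cdx2::L2-IL-1β* minus *L2-IL-1β* on the log2 scale, and the precision is limited by 3 arrays for each genotype.

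**Figure D1:**
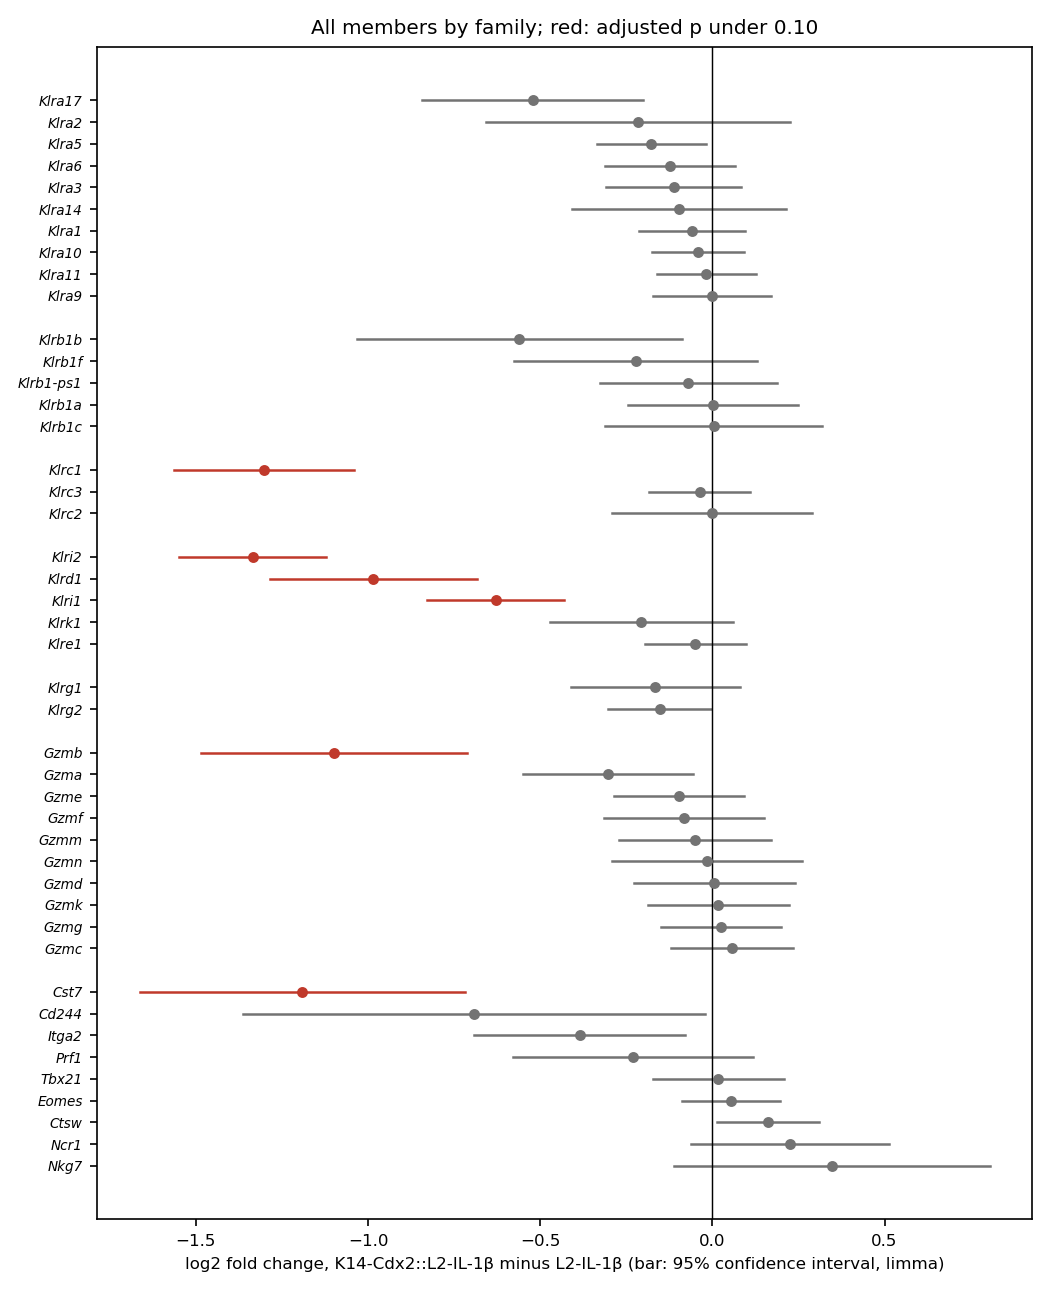
Log2 fold change of the 44 members (*K14-Cdx2::L2-IL-1β* minus *L2-IL-1β*, points, n = 3 arrays each) with 95% confidence intervals from limma, grouped by family. The 6 genes in red, from -1.33 for Klri2 to -0.63 for Klri1, passed an adjusted p under 0.10, and most others lie close to 0.

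Some differences between arrays do not follow genotype. Sample 52540 had a mean r of 0.990 with the other genotype and of 0.987 with its own, Y-linked genes had a median log2 intensity of 8.96 in sample 52541 and 4.80 to 4.92 in the other 5, and the labels give no batch. Cdx2 itself read 9.04, 9.72 and 9.83 in the double transgenic samples and 6.74, 6.87 and 6.80 in the *L2-IL-1β* samples, higher in every sample labelled with the second transgene. As a description of dim signal, the 1103 olfactory receptor probe sets, whose genes are mostly silent outside the nose, had a 95th percentile of 6.11 to 6.23 per array. Of the 44 members, 17 lay above it in all 3 arrays of at least 1 genotype, 3 in some arrays only and 24 in none. For a gene below this level the fold change is a difference between dim signals.

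Klrc1, which encodes the inhibitory receptor NKG2A, fell 2.47-fold. It read 5.20, 5.45 and 5.34 in the double transgenic samples and 6.78, 6.45 and 6.67 in the *L2-IL-1β* samples (log2 fold change -1.30 with SE 0.11, limma adjusted p = 0.017). The genotypes did not overlap, and the *K14-Cdx2::L2-IL-1β* values all lay below the olfactory receptor level while the *L2-IL-1β* values all lay above it. Klrd1, which encodes CD94, the partner of NKG2A, NKG2C and NKG2E, read 6.32, 6.09 and 5.84 against 6.99, 7.13 and 7.08 (log2 fold change -0.98 with SE 0.13, adjusted p = 0.042). Its lowest *L2-IL-1β* value was 6.99 and its highest *K14-Cdx2::L2-IL-1β* value 6.32, so these did not overlap either. In bulk RNA, fewer cells of a type and less RNA per cell cannot be told apart, here and in every result below.

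Klri2 and Klri1 encode a pair of receptors that join KLRE1 in rat and mouse NK cells. Klri2 read 6.04, 6.15 and 6.12 in the double transgenic samples and 7.34, 7.38 and 7.60 in the *L2-IL-1β* samples (log2 fold change -1.33 with SE 0.09, limma adjusted p = 0.0092). Klri1 read 5.49, 5.41 and 5.30 against 5.94, 6.14 and 6.01 (log2 fold change -0.63 with SE 0.08, adjusted p = 0.044). Neither gene's genotypes overlapped. Klri2 lay above the olfactory receptor level in 1 of 3 *K14-Cdx2::L2-IL-1β* and 3 of 3 *L2-IL-1β* samples, and all 6 Klri1 values lay below it. Klre1, the partner, read 4.82 ± 0.05 against 4.86 ± 0.03 (SD, n = 3 each) (log2 fold change -0.05, 95% interval -0.20 to 0.10, adjusted p = 0.78), and all its values were below that level too.

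The fifth and sixth genes that fell encode a granzyme and a cathepsin inhibitor. Gzmb, granzyme B, the granzyme that cuts after aspartate and activates caspases, read 5.04, 5.14 and 5.42 in the double transgenic samples and 6.36, 6.0002 and 6.53 in the *L2-IL-1β* samples (log2 fold change -1.10 with SE 0.16, limma adjusted p = 0.052). Cst7, cystatin F, an inhibitor of the cathepsins that process granzymes, read 7.01, 7.40 and 6.995 against 8.17, 8.73 and 8.07 (log2 fold change -1.19 with SE 0.20, adjusted p = 0.064). Neither gene's genotypes overlapped. Cst7 was above the olfactory receptor level in all 6 arrays, while Gzmb was above it in 2 of 3 *L2-IL-1β* samples and in 0 of 3 *K14-Cdx2::L2-IL-1β* samples.

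**Figure D2:**
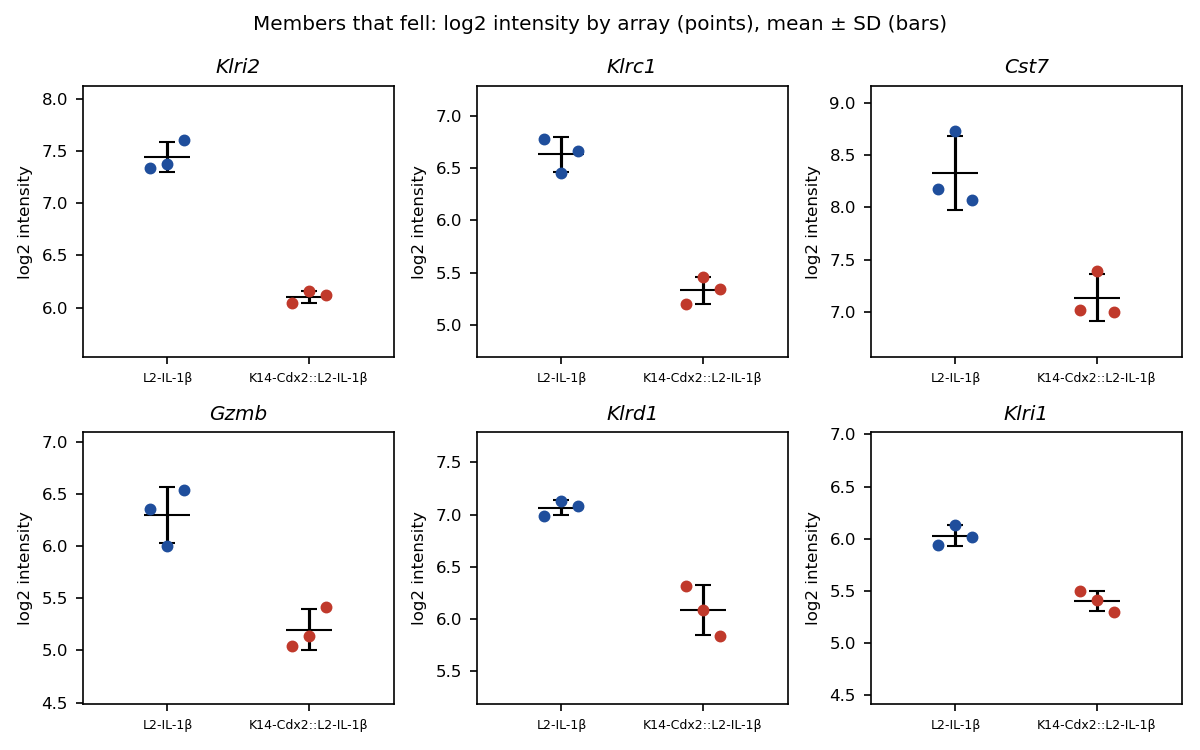
Log2 intensity of the 6 members that fell, by array (points, 3 for each genotype), with the mean and SD as bars and the same axis span in every panel. In each gene all 3 *L2-IL-1β* samples lie above all 3 *K14-Cdx2::L2-IL-1β* samples, Klri2 with 7.34 to 7.60 against 6.04 to 6.15.

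Some calls were lost when 1 array was left out, while all 6 genes kept a negative log2 fold change (-1.39 to -1.25 for Klri2, -1.39 to -1.23 for Klrc1, -1.32 to -0.99 for Cst7, -1.25 to -0.98 for Gzmb, -1.10 to -0.86 for Klrd1 and -0.68 to -0.58 for Klri1). Without sample 52540 all 6 were called. Klri2 was called without any 1 array, and of the 6 omissions Klrc1 was lost with that of sample 52543 alone (adjusted p = 0.11, limma). Klrd1 and Klri1 were lost without sample 52541 (adjusted p = 0.14 for each), 52543 (0.19 and 0.18), 52544 (0.15 for each) or 52545 (0.15 for each). Gzmb was lost without 52541 (0.16), 52543 (0.24), 52544 (0.1015) or 52545 (0.15), and Cst7 without 52541 (0.14), 52542 (0.11), 52543 (0.24), 52544 (0.14) or 52545 (0.15). The count over all probe sets moved as well, from 433 lower with all 6 samples to 13 without sample 52543 and 1275 without sample 52540. A test with equal variances and no sharing of spread called none of the 34365 after adjustment, and at an unadjusted p under 0.01 with a fold of 1.5 it called the same 6 members, where 0.722% of all probe sets were lower by that rule. The smallest two-sided p that an exact permutation of 3 and 3 samples allows is 0.1, which any gene without overlap reaches.

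All 4 receptor genes that fell lie in 1 stretch of the NK gene complex on chromosome 6. Their transcripts, positioned on NCBIM37 in the deposited annotation, run from the start of Klrd1 at 129541800 to the end of Klri2 at 129690502, which is 148.702 kb. The called genes themselves set the ends of this stretch, so the count within it is only a description. It held 7 positioned probe sets, all of them members, of which 4 were called lower. The 3 between them that were not called are Klrk1, Klrc3 and Klrc2. Within 1 Mb of Klrd1, itself a called gene, 43 probe sets were positioned on either side, of which 5 were called lower and 0 higher by limma. Of all probe sets on the array 1.26% were called lower and 0.576% higher. The only called gene that is not a member was Clec2d, which encodes a lectin ligand of NK receptors, at a distance of -411.167 kb from Klrd1 (log2 fold change -0.64, adjusted p = 0.055). The nearest members on either side of the stretch, Klre1 at -13.889 kb and Klra17 at 239.372 kb from the Klrd1 start, were not called. Neither was Gm156, which lies between Klri2 and Klra17, where the RefSeq gene order has the receptor gene Klrh1. The symbol Gm156 did not match the rule for members.

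**Figure D3:**
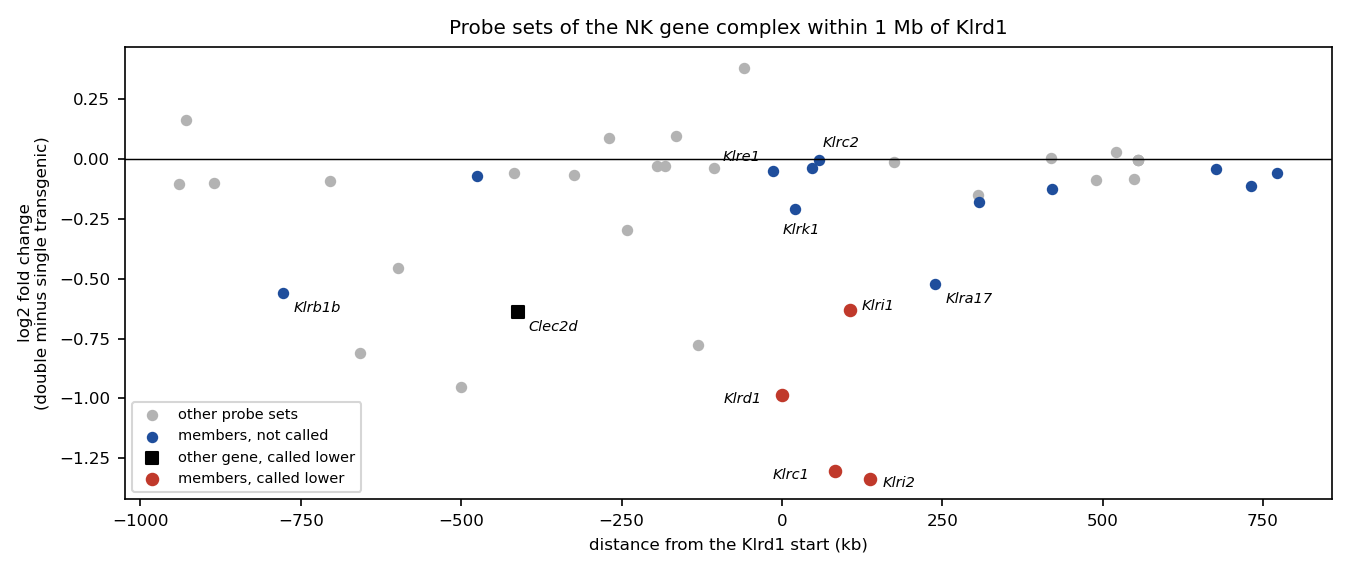
Log2 fold change (*K14-Cdx2::L2-IL-1β* minus *L2-IL-1β*) of the 43 probe sets within 1 Mb of the Klrd1 start, against their distance from it in kb. Klrd1, Klrc1, Klri1 and Klri2 (red) lie within 148.702 kb at -0.63 to -1.33, with Klrk1, Klrc2 and Klrc3 between them near or just below 0.

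The genes of 3 receptors in that stretch, Klrk1, Klrc2 and Klrc3, were not called. Klrk1, which encodes the activating receptor NKG2D, read 6.21, 5.98 and 6.01 in the double transgenic samples and 6.10, 6.30 and 6.44 in the *L2-IL-1β* samples, and the genotypes overlapped (log2 fold change -0.21, 95% interval -0.47 to 0.06, adjusted p = 0.48, limma). Klrc2 (NKG2C) gave a log2 fold change of -0.00 (95% interval -0.29 to 0.29, adjusted p = 0.997) and Klrc3 (NKG2E) of -0.04 (95% interval -0.18 to 0.11, adjusted p = 0.85). Both read below the olfactory receptor level in every array, with mean log2 intensities of 4.09 and 3.65 in *K14-Cdx2::L2-IL-1β* nodules. The Klrc genes are close relatives, and how well the probes separate them was not examined.

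None of the 10 Klra genes, the Ly49 receptors of MHC class I, was called, with log2 fold changes from -0.52 to -0.00 and a median of -0.10. Only Klra2 lay above the olfactory receptor level in all 3 *L2-IL-1β* samples, with a mean log2 intensity of 6.44 there and 6.23 in *K14-Cdx2::L2-IL-1β* nodules. Klra17, which encodes Ly49Q, a family member known from myeloid and plasmacytoid dendritic cells rather than NK cells, was the nearest to a call. It read 5.37, 5.13 and 5.48 in the double transgenic samples and 6.08, 5.70 and 5.77 in the *L2-IL-1β* samples, without overlap (log2 fold change -0.52, 95% interval -0.84 to -0.20, adjusted p = 0.17, limma). Klra5 (log2 fold change -0.18) and Klra10 (log2 fold change -0.04) did not overlap either, at differences too small to pass. Several Klra genes are near copies, and the annotation gives the probe sets of Klra1 and Klra6 to other Klra genes too, so their values are uncertain.

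The 5 Klrb1 genes, among them Klrb1-ps1, a pseudogene by its symbol, and both Klrg genes were not called. Klrb1c, whose product is the NK1.1 antigen of C57/BL6 NK cells, read 4.83, 4.70 and 5.20 in the double transgenic samples and 4.97, 4.86 and 4.88 in the *L2-IL-1β* samples (log2 fold change 0.00, 95% interval -0.31 to 0.32, adjusted p = 0.995, limma), below the olfactory receptor level throughout. Its values overlapped and its sign changed with the arrays used, from -0.14 without sample 52542 to 0.11. Klrb1b, an inhibitory receptor that binds the product of Clec2d, had 7.42 ± 0.38 (SD, n = 3) against 7.98 ± 0.18 (SD, n = 3) and did not pass, though the genotypes did not overlap (log2 fold change -0.56, 95% interval -1.03 to -0.09, adjusted p = 0.29). Klrg1, a receptor of cadherins on mature killer cells and on innate lymphoid cells, read 5.90, 6.10 and 5.97 against 5.97, 6.24 and 6.26, with overlap (log2 fold change -0.17, 95% interval -0.41 to 0.08, adjusted p = 0.55). Klrg2 gave a log2 fold change of -0.15 (95% interval -0.30 to -0.00, adjusted p = 0.36), without overlap.

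Among the 10 granzymes, Gzmb alone was called. Gzma, granzyme A, a tryptase that NK and CD8 T cells often carry together with granzyme B, read 4.19, 4.18 and 4.18 in the double transgenic samples and 4.32, 4.69 and 4.44 in the *L2-IL-1β* samples. The genotypes did not overlap, but every value was below the olfactory receptor level and the test was not passed (log2 fold change -0.30, 95% interval -0.55 to -0.06, adjusted p = 0.27, limma). Gzmk and Gzmm, the granzymes above that level in all 6 arrays, had log2 fold changes of 0.02 (95% interval -0.19 to 0.22) and -0.05 (95% interval -0.27 to 0.17). The 6 granzymes beside Gzmb on chromosome 14 (Gzmc, Gzmd, Gzme, Gzmf, Gzmg and Gzmn) ran from -0.10 to 0.06 and were below the level in every array. The probe set of Gzme is also assigned to Gzmd, so these cannot be separated.

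The other defining genes of NK cells were not called. Ncr1, which encodes NKp46 and is the most selective NK and type 1 innate lymphoid marker of the mouse among the members, read 5.18, 5.58 and 5.18 in the double transgenic samples and 5.11, 5.04 and 5.12 in the *L2-IL-1β* samples. Its *K14-Cdx2::L2-IL-1β* values were the higher ones without overlap, by a log2 fold change of 0.23 (95% interval -0.06 to 0.51, adjusted p = 0.48, limma), and below the olfactory receptor level in every array. Eomes, a T-box factor of NK and memory CD8 cells, read 6.59, 6.52 and 6.57 against 6.49, 6.54 and 6.49, with overlap (log2 fold change 0.05, 95% interval -0.09 to 0.20, adjusted p = 0.75). Tbx21, which encodes T-bet, read 6.93, 6.91 and 6.70 against 6.83, 6.80 and 6.85 (log2 fold change 0.02, 95% interval -0.17 to 0.21, adjusted p = 0.95). The values overlapped, and the sign of Tbx21 changed without sample 52540 (-0.02) and without 52541 (-0.01).

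Perforin and the granule and surface genes gave a mixed picture. Prf1 read 6.93, 6.42 and 6.40 in the double transgenic samples and 6.82, 6.81 and 6.81 in the *L2-IL-1β* samples (log2 fold change -0.23, 95% interval -0.58 to 0.12, adjusted p = 0.55, limma). Sample 52540 was above the *L2-IL-1β* samples and the other 2 below them. Without sample 52540 Prf1 was called lower (log2 fold change -0.40, adjusted p = 0.049).

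Nkg7, a protein of the granule membrane, read 7.96, 7.59 and 7.18 in the double transgenic samples and 7.17, 7.37 and 7.15 in the *L2-IL-1β* samples (log2 fold change 0.35, 95% interval -0.11 to 0.80, adjusted p = 0.50, limma). Its highest value was again in sample 52540, and the genotypes overlapped. Ctsw, cathepsin W of NK and CD8 T cells, had 7.14 ± 0.04 (SD, n = 3) against 6.98 ± 0.04 (SD, n = 3), without overlap (log2 fold change 0.16, 95% interval 0.01 to 0.31, adjusted p = 0.33). Ctsw and Ncr1 were the 2 members whose *K14-Cdx2::L2-IL-1β* values all exceeded the *L2-IL-1β* values.

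Itga2, the integrin subunit CD49b that is found on NK cells, platelets and epithelium, read 9.46, 9.50 and 9.87 in the double transgenic samples and 10.03, 10.09 and 9.86 in the *L2-IL-1β* samples (log2 fold change -0.39, 95% interval -0.69 to -0.08, adjusted p = 0.26, limma). The genotypes overlapped by sample 52542, and without that sample Itga2 was called lower (log2 fold change -0.52, adjusted p = 0.091). Cd244, which encodes 2B4, the receptor of CD48, read 6.88, 6.83 and 5.87 against 7.24, 6.99 and 7.43, without overlap. Its fold change of -0.69 (95% interval -1.36 to -0.02, adjusted p = 0.35) was the largest among the uncalled members and leaned on sample 52542, the lowest, without which it was -0.36.

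**Figure D4:**
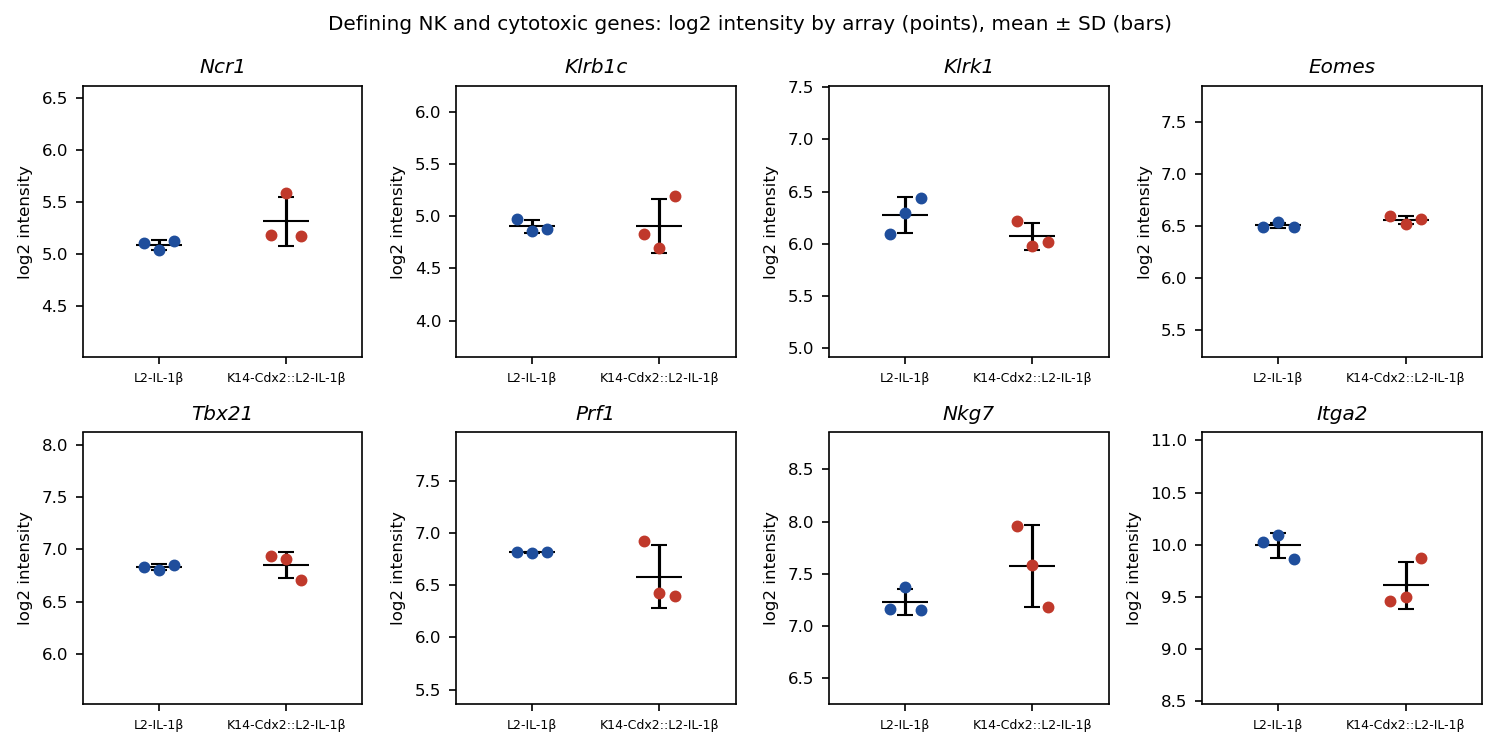
Log2 intensity of 8 NK and cytotoxic genes by array (points, 3 for each genotype) with the mean and SD as bars, on the same axis span in every panel. In 7 of the 8 the genotypes overlap, and in Ncr1 all 3 *K14-Cdx2::L2-IL-1β* samples (5.18 to 5.58) lie above all 3 *L2-IL-1β* samples (5.04 to 5.12). Klrd1, Gzmb and Gzma, also among the listed NK markers, are not drawn. They lay lower without overlap (log2 fold changes -0.98, -1.10 and -0.30). Of all probe sets, 11.5% lay lower and 8.3% higher without overlap.

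Across the 44 members, 13 lay lower in all 3 *K14-Cdx2::L2-IL-1β* samples than in any *L2-IL-1β* sample (29.5%, where 11.5% of all probe sets did), 2 lay higher (4.55%, where 8.3% of all probe sets did) and 29 overlapped. Over all 44 the median shift from the *L2-IL-1β* mean was -0.07, -0.14 and -0.08 (log2) in samples 52540, 52541 and 52542.

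Among genes of the same pathways, 11 of 113 gene entries in 7 lists were called lower, where 1.26% of all probe sets were, and 0 higher by limma. Zap70, the kinase downstream of T cell and some NK receptors, read 6.40, 6.53 and 6.35 in the double transgenic samples and 7.40, 7.55 and 7.20 in the *L2-IL-1β* samples (log2 fold change -0.96, adjusted p = 0.029, limma). It was the 1 called gene of 17 signalling adaptors and kinases (median log2 fold change -0.22). Of 17 immunoglobulin-family and other receptors, 3 fell (median -0.13): Havcr2 (TIM-3, log2 fold change -1.28, adjusted p = 0.027), Itgal (the LFA-1 subunit of the killer synapse, -0.76, adjusted p = 0.055) and Cd226 (DNAM-1, -0.56, adjusted p = 0.053).

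Of 12 genes of granule release and storage, 2 fell (median log2 fold change -0.10). Srgn, serglycin, the proteoglycan that holds granzymes in the granule, fell by 0.64 (log2, adjusted p = 0.047, limma), and Ctsc, cathepsin C, which activates granzymes and which cystatin F inhibits, fell by 0.60 (adjusted p = 0.043). Both are also expressed by myeloid cells. None of 13 inhibitors of granzymes and granule cathepsins (median -0.11) and none of 11 death ligands and effector cytokines (median -0.05) was called by limma, and Tnf, a death ligand, had -0.56 (adjusted p = 0.34).

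Of 23 cytokine receptors and factors of killer lymphocytes, 4 fell (median log2 fold change -0.21). Il2rb, the receptor chain that IL-2 and IL-15 share and on which NK cells depend, read 7.04, 7.03 and 6.98 in the double transgenic samples and 8.13, 8.28 and 8.31 in the *L2-IL-1β* samples, while Il7r, Stat4 and Ikzf3 had log2 fold changes of -0.90, -0.74 and -0.74 (adjusted p = 0.027, 0.059 and 0.091, limma). Il2rg, just outside the threshold, had -0.90 (adjusted p = 0.102). Il12rb2 went the other way without passing (log2 fold change 1.46, 95% interval 0.54 to 2.37, adjusted p = 0.18). Of 20 ligands of the receptors, Clec2d alone was called (median -0.13). H2-T23, whose product Qa-1 is what CD94/NKG2A binds, gave a log2 fold change of -0.45 (95% interval -0.82 to -0.07, adjusted p = 0.28), and H60b, an NKG2D ligand, of 1.10 with an adjusted p of 0.32. The other NKG2D ligands found on the list, Raet1e, H60a, Ulbp1 and H60c, had -0.39, -0.22, -0.12 and -0.04. H2-T22, the ligand gene nearest to a call, had -0.85 (adjusted p = 0.13).

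Some markers of other cell types that the nodules could hold were lower as well, while those of several other types were not called. Beside the counts given here, 1.26% of all probe sets were called lower and 11.5% lay lower without overlap. Of 14 listed gamma-delta T cell markers 7 were found, and 5 of them fell: Tcrg-V6 (log2 fold change -2.08, adjusted p = 0.041, limma), Il17a (-1.52, 0.042), Tcrg-V5 (-1.30, 0.065), Blk (-1.20, 0.055) and Cd163l1 (-0.82, 0.051). The summed level of the list (log2 of the summed intensities) was 10.81 to 10.96 in *K14-Cdx2::L2-IL-1β* and 11.60 to 11.96 in *L2-IL-1β* samples, with a median log2 fold change of -1.20. Of 8 pan-leukocyte markers 2 fell (Cd53, -1.03, and Ptpn7, -0.71) and all 8 lay lower without overlap, with a summed level of 10.80 to 11.36 against 11.76 to 11.97. Ptprc, the common leukocyte antigen CD45, gave -0.80 (log2, adjusted p = 0.25).

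Of 11 T cell markers 1 fell (Cd5, log2 fold change -0.71, adjusted p = 0.099, limma), with a summed level of 10.42 to 11.25 in *K14-Cdx2::L2-IL-1β* and 11.67 to 11.86 in *L2-IL-1β* samples and a median log2 fold change of -0.10. Cd3e had -1.29 with an adjusted p of 0.103, just outside the threshold, Cd3g had -1.47 (adjusted p = 0.24) and Cd8a had 0.30. Cd3g and Cd3e were the brightest genes of this list, so its summed level rests largely on them. Of the 11 T cell markers 4 lay lower without overlap, where 11.5% of all probe sets did. The 2 that lay higher were Cd8a and Themis (log2 fold change 0.14), where 8.3% of all probe sets did. Of 11 neutrophil markers 4 fell (S100a8, S100a9, Ltf and Ly6g), with a median log2 fold change of -0.76 and a summed level of 12.77 to 13.05 against 14.04 to 14.26. The study describes S100A8 and S100A9 as products of squamous epithelium too. S100a8 was the brightest gene of this list, so its summed level is not one of neutrophils alone. Of 8 squamous markers 2 fell (Krt14 and Sfn), with a summed level of 15.41 to 15.58 against 15.77 to 15.82. The share of all probe sets called lower, to set beside the T cell, neutrophil and squamous counts, was 1.26%. The part that the makeup of the nodules has in the lower level of Klrc1, Klrd1, Klri1, Klri2, Gzmb and Cst7 was not tested.

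In 14 mast cell markers, 10 platelet, 9 macrophage, 7 B cell and 10 columnar markers none was called by limma. The mast cell list had its median log2 fold change at 0.33 and a summed level of 11.79 to 12.68 in *K14-Cdx2::L2-IL-1β* and 11.45 to 12.11 in *L2-IL-1β* samples, and Mcpt4, a protease gene near the granzyme cluster, had 0.66 (adjusted p = 0.11). The 8 mast cell and neutrophil proteases that neighbour Gzmb on chromosome 14, some of which are also on the mast cell list, had a median of 0.06. The platelet list, whose cells share Itga2, had -0.01 with a summed level of 12.10 to 12.21 against 12.04 to 12.31. The summed level of the macrophage list was 12.21 to 12.68 against 12.51 to 12.63, that of the B cell list 10.50 to 10.87 against 10.69 to 10.77, and that of the columnar list 15.39 to 16.18 against 15.35 to 15.78.

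**Figure D5:**
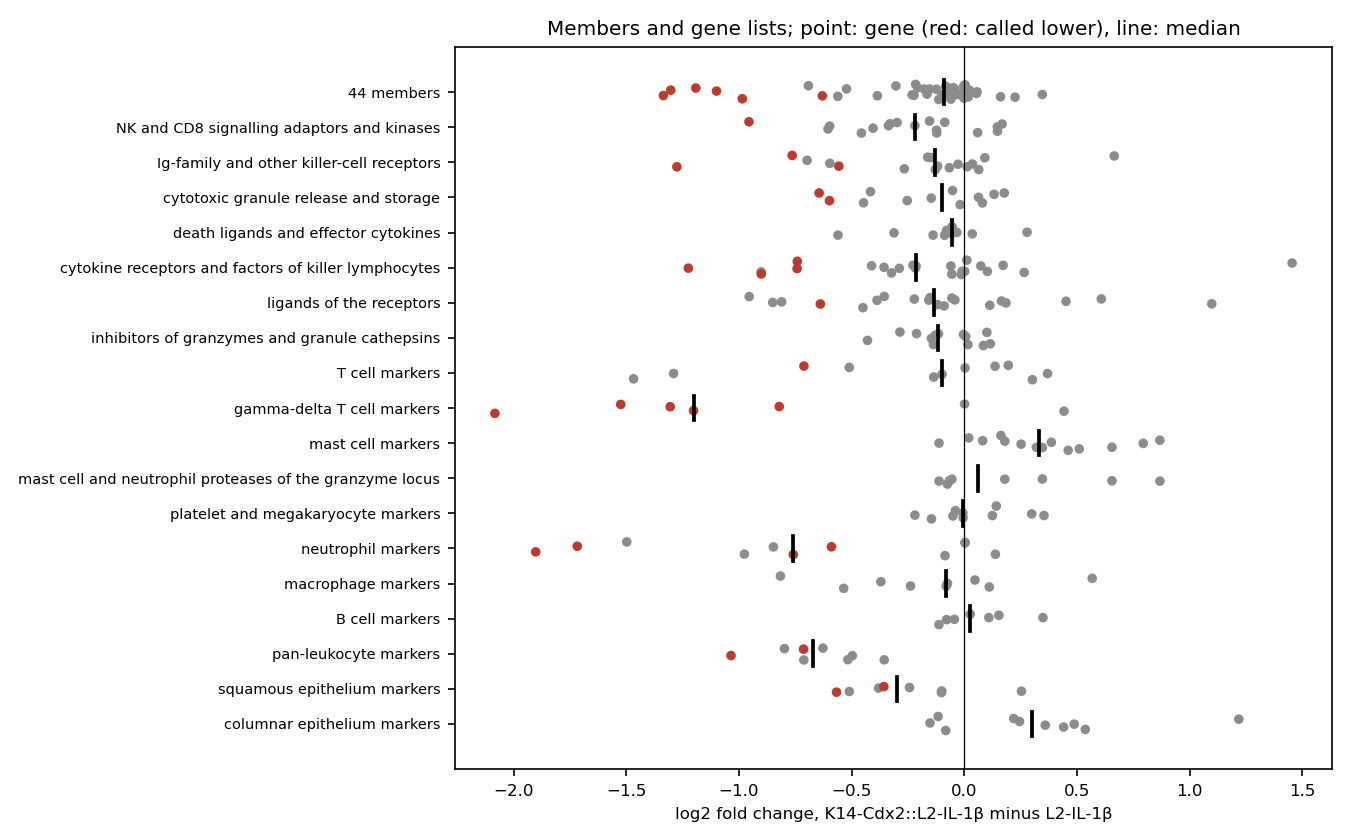
Log2 fold change (*K14-Cdx2::L2-IL-1β* minus *L2-IL-1β*) of the 44 members and of each gene of 18 lists, with genes called lower in red and the list median as a black line. No gene of any list was called higher, and the gamma-delta T cell list has the lowest median, -1.20.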

How the data were processed

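Total RNA of 6 nodule samples was measured on Affymetrix gene arrays of the mouse. What the authors deposited are log2 intensities for each probe set, already normalized between arrays (medians of 6.62 to 6.65). Their background correction, summarisation and software were not stated in any source used. The methods and the series text name different array types. The submitters' notes name mm8, and transcript positions in the annotation name NCBIM37. The 2 deposited tables held identical values, and the authors' own columns of ratios, fold changes, scores and p-values were not used.

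Tests ran over all 34365 probe sets in R 4.3.3 with the limma package 3.58.1 (eBayes after lmFit, 2.59 prior degrees of freedom, genotype as the only term, Benjamini-Hochberg adjustment), a method chosen in place of the study's significance analysis of microarrays, which relabels samples. The script was tested on simulated data. P-values measure the spread between these samples. A summed level is log2 of the summed linear intensities of a list. Values in every array were given for called members, for the 6 with the largest log2 fold change and for a fixed set of NK and cytotoxic genes, and list genes were named where called or among the 3 with the next smallest p. Cd8a, H60b and others named outside this rule were picked with their values in view. The members and lists were chosen with earlier results of these data known, and the olfactory receptor level and motifs after values were seen. Of 235 list entries, 216 were found. Alternatives were median centring, quantile normalization, leaving out probe sets with a mean below 6.64, trend and robust eBayes, array weights, an equal-variance test, averaging the probe sets of a gene, other thresholds and leaving out each array. Tables used pandas 2.3.3, numpy 2.4.6 and scipy 1.17.1 in Python 3.11.15, and plots matplotlib 3.10.9.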

Additional observations from a re-analysis of the deposited data

How the results depend on the processing

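The same 6 members were called with median centring, further quantile normalization and trend and robust eBayes, and array weights added Klra17. Averaging the probe sets of a gene also left the 6 called. The 44 members had 44 probe sets, so averaging could not change their log2 fold changes. Leaving out probe sets below the median mean left 2 called (Cst7 and Klri2), the other 4 being among those left out, and a median log2 fold change of -0.22 over the members kept. The equal-variance test called 0 after adjustment and 6 with unadjusted p under 0.01 and 1.5-fold. An adjusted p under 0.05 left 4. Without 1 sample the count ran from 1 (without 52543) to 7 (without 52540), 2 without 52541, 52544 or 52545, and the median from -0.13 to -0.056. No call was reversed. Among uncalled genes, the log2 fold change of Klrb1c was -0.082 with array weights and -0.14 to 0.11 without 1 sample, and that of Tbx21 -0.025 to 0.090. No member was called higher under any alternative. Of the 44, 24 lay below the olfactory receptor level in every array. No paired analysis was possible because the groups share no sample numbers.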
